A study of Mus musculus with 6 samples.

Results

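Carbonic anhydrases are zinc enzymes that interconvert carbon dioxide and bicarbonate, and 9 genes of the family were followed in stria vascularis of Esrrb mutant and wild-type mice: Car2, Car3, Car4, Car8, Car10, Car11, Car12, Car13 and Car14. Members were taken by name, as all probe sets whose platform annotation gives exactly 1 symbol that is on this list. This gave 20 of 45037 probe sets, standing for 9 of 18193 measured genes. Stria vascularis makes the endolymph of the cochlea, and Esrrb, which the labels also call Errb and Nr3b2, is the gene of estrogen-related receptor beta, a nuclear receptor without a known hormone. Each genotype had 3 samples, each a pool of 10 mice on 1 Affymetrix array. The mutant is a conditional knock-out; the sources used here do not give its Cre driver, the deleted part, the strain, the sex or the alleles of the wild types. The design text speaks of inner ears and the labels of stria vascularis. Only wild-type replicate 1 carries an age, postnatal days 3 to 5. The 3 probe sets of Esrrb itself differed by -0.42, -0.18 and -0.07 without a call, and as the deleted part is unknown they do not check the genotype.

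The cytosolic members (Car2, Car3 and Car13) supply protons and bicarbonate inside cells. Car4 is held at the cell surface by a lipid anchor, and Car12 and Car14 cross the membrane with their catalytic part outside. Car8, Car10 and Car11 are related proteins without carbonic anhydrase activity: Car8 binds the inositol trisphosphate receptor, and Car10 and Car11 bind neurexins. In the inner ear these enzymes are known from the lateral wall, where bicarbonate exchange helps to set the pH of endolymph.

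On chromosome 3, Car13, Car1, Car3 and Car2 were consecutive protein-coding genes in RefSeq's annotation of GRCm38.p6, which also places Car14 on chromosome 3. Car8 lies on chromosome 4, Car11 on 7, Car12 on 9, and Car4 and Car10 on 11.

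RefSeq promoter windows were at hand for 5 of the 9 genes (Car4, Car10, Car11, Car12 and Car14), 7 windows in all. Each was cut to the 250 bases before an annotated transcript start. Car10 had the largest difference between the genotypes, by its best expressed probe set and without a call. Car2, with the smallest adjusted p of the members, has no window. The windows of Car10 and of the well expressed surface enzymes Car12 and Car14 are shown, because Esrrb is a transcription factor. They are written 5′ to 3′ on the strand of the gene, with GC boxes (GGGCGG, either strand) in capitals.
Car10, upstream start (GRCm38.p6, chr11:93098116-93098365, plus strand): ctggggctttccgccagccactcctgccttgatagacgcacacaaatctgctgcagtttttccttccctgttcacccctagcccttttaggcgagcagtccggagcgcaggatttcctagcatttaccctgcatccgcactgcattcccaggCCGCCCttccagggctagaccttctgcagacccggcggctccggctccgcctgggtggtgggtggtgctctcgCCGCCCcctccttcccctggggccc
Car10, downstream start (GRCm38.p6, chr11:93099040-93099289, plus strand): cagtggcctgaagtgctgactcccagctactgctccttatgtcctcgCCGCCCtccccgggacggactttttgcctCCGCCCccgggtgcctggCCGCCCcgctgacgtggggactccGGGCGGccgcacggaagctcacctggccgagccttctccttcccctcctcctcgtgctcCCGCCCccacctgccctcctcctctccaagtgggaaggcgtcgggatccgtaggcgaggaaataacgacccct
Car12 (GRCm38.p6, chr9:66713436-66713685, plus strand): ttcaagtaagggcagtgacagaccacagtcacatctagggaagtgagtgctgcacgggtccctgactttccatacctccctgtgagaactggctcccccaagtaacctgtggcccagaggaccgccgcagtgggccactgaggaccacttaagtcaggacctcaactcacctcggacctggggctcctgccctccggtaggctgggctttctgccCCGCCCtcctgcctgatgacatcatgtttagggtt
Car14 (GRCm38.p6, chr3:95904686-95904935, minus strand): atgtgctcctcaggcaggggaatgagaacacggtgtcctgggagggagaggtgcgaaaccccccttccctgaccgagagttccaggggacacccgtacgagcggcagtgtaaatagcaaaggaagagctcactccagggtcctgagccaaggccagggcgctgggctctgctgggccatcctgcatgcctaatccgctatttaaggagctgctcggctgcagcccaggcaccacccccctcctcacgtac
The element that estrogen-related receptors bind, TNAAGGTCA, was in none of the 7 windows on either strand. Of all 32851 such windows 1.14% hold it. The shorter site AGGTCA, which lies within it, was also in none of the 7, against 14.0% of all windows. GC boxes were in 3 of the 7 windows, those of Car10 and Car12, against 32.7% of all. The Car10 windows held 2 and 5 of them, the Car12 window 1 and the Car14 window 0. These matches describe the letters of these windows and say nothing of binding there or elsewhere.

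No carbonic anhydrase passed the test between the genotypes. Each difference given is the log2 value of the mutant less that of the wild type, averaged over the 3 pairs of same-numbered arrays with the SD of the pairs (n = 3) and the 95% interval of limma's paired fit. That fit compares the genotypes with the replicate number as a block. Of the 20 probe sets 0 had a Benjamini-Hochberg adjusted p under 0.05 over all probe sets, where 42 of 45037, or 0.0933%, did (0.0822% lower and 0.0111% higher in the mutant). The smallest adjusted p of a member was 0.606. At an unadjusted p under 0.05 there was 1 member probe set of 20, that of Car2, which is 5.00% against 7.18% of all probe sets. Without the pairs limma called 0 of the 20 by either p, against 0.00666% and 0.209% of all.

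The differences were small and of both signs: 11 of 20 probe sets were negative and 9 positive, with a median of -0.01, beside -0.0030 over all 45037. Absolute differences had a median of 0.070 in the members and 0.075 in all probe sets. The mean difference lay within ±0.35 in 19 of the 20; the exception was Car10. The genotypes overlapped in all 20, and 1.07% of all probe sets did not overlap. The sign was the same in all 3 pairs for 4 of 20 probe sets, 3 lower and 1 higher, where 20.5% of all had 1 sign throughout (8.41% lower, 12.1% higher). The wild-type SD exceeded the size of the difference in 17 of the 20, against 95.3% of all. Whole arrays differed in level between pairs, by the medians given below. Small differences therefore overlap in most probe sets, so overlap, this SD and the fit without pairs cannot show their absence. In tissue RNA, fewer cells of a type and less RNA per cell cannot be told apart.

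**Figure D1:**
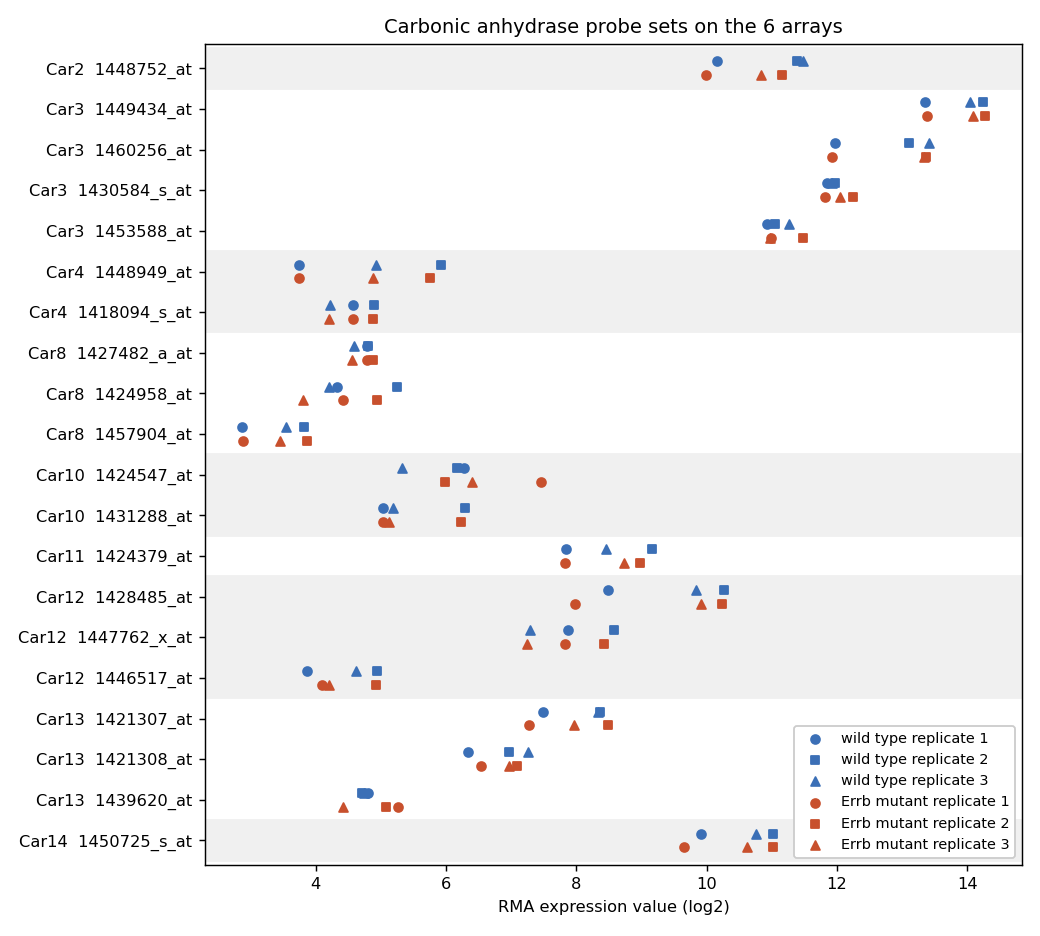
Deposited RMA values (log2, horizontal axis) of the 20 carbonic anhydrase probe sets on the 6 arrays, wild type in blue above and Errb mutant in red below each line, with 1 marker shape per replicate number. Colours overlap in every row, and same-shaped markers of both colours mostly sit together; Car3 1449434_at lies between 13.35 and 14.28.

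Arrays resembled their same-numbered partner, and whether pairs share a litter or day, or a separate normalization, is not stated. The paired differences and exact zeros below are read with that limit. The wild-type medians over all probe sets were 6.07, 6.95 and 6.42, and the mutant medians 6.08, 6.94 and 6.38. In 13 of the 20 probe sets both arrays of pair 1 lay below the other 4 arrays, against 62.8% of all probe sets. The 3′ less the 5′ Gapdh control signal, which widens as RNA degrades, was 2.28, 0.21 and -0.04 in wild type and 2.57, 0.16 and 0.51 in the mutant. A difference of exactly 0 occurred in pair 1 for 4 of the 20, against 34.2% of all probe sets, and for 0 of the 20 in pairs 2 and 3, against 2.63% and 3.1%. Of 11 strial marginal cell markers, which ran from the 21.8 to the 99.6 percentile, 4 were lower in the mutant by the paired fit (Kcne1, Kcnq1, Slc12a2 and Atp13a5), where 0.0822% of all probe sets were. Without the pairs 1 was called, Kcne1. The means of the other 7, which include Esrrb itself (-0.07), were negative without a call.

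Car2, the fast cytosolic enzyme that is abundant in red cells, osteoclasts and many ion-transporting cells, came closest to a difference. Its single probe set (1448752_at) gave the wild types, in the order of their numbers, 10.16, 11.38 and 11.47, and the mutants 9.99, 11.15 and 10.83. Every mutant was below its own wild-type partner, while the genotypes overlapped. The difference was -0.34 ± 0.26, or 1.27-fold, with an interval of -0.63 to -0.06 and adjusted p = 0.606 (limma, paired; unadjusted p = 0.0257). The pair differences were -0.16, -0.23 and -0.64, so pair 3 held the widest. Without pair 3 the mean was -0.20, and without pair 1 it was -0.43.

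Markers of cells that may carry Car2 were read beside it. The 11 marginal cell markers had medians of -0.84, -1.11 and -1.07 in pairs 1 to 3, and their summed linear level ran from 9543 to 18240 in wild type and 4023 to 7788 in the mutant. Of 13 intermediate cell and melanocyte markers 10 were negative, with pair medians of -0.46, -0.68 and -0.61 and sums of 8599 to 17500 and 6165 to 10887. Of 6 erythroid markers 5 were negative, with pair medians of 0, -0.14 and -0.15 and sums of 467 to 1322 and 449 to 1024. Osteoclast markers were positive in 7 of 9, with pair medians of 0.26, 0.06 and -0.02 and sums of 684 to 1685 and 959 to 1825. RMA values hold no 0, so no marker is at 0. Over genes and arrays the osteoclast list ran from the 4.69 percentile (Calcr) to the 89.4 (Ctsk), and the erythroid list from the 12.7 (Hba-a1) to the 83.5 (Alas2). Alas2, the heme synthesis gene of red cell precursors, differed by -0.16, -0.91 and -0.83 in the 3 pairs, a mean of -0.63. The only positive erythroid marker, Hbb-b2, differed by 0, 0.05 and 0.20. The means of Slc4a1, Hba-a1, Epb42 and Car1 were -0.26, -0.11, -0.10 and -0.04. The part of these cells in the Car2 values was not tested.

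Car3, a cytosolic enzyme of low activity best known from skeletal muscle, liver and fat, was among the brightest genes on every array. Its best expressed probe set (1449434_at) stood at the 99.98 to 99.99 percentile of all probe sets. It read 13.35, 14.24 and 14.04 in wild type and 13.39, 14.28 and 14.08 in the mutant. Each mutant lay just above its partner, by 0.04, 0.03 and 0.04, whereas the wild types spanned more than the genotypes differed. The mean difference was 0.04 ± 0.0061, with an interval of -0.12 to 0.20 and adjusted p = 0.878 (limma, paired). That interval reaches 1.09-fold lower and 1.15-fold higher. Whether the signal was saturated cannot be read from these values.

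The other 3 probe sets of Car3 gave differences of 0.05 ± 0.19 (1460256_at), 0.13 ± 0.16 (1430584_s_at) and 0.06 ± 0.36 (1453588_at). All 4 means were positive. In pair 2 these 3 read 0.26, 0.29 and 0.43 higher in the mutant, and in pair 3 they read -0.08, 0.12 and -0.30. The 4 were designed on 2 sequences and are not independent measurements. None of their intervals went beyond -0.30 or 0.43.

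Markers of muscle, fat and spiral ligament were read beside Car3. The muscle list ran from the 2.90 percentile (Myh8) to the 55.7 (Acta1). The 12 muscle markers summed to 518 to 917 in wild type and 506 to 876 in the mutant on the linear scale, with pair medians of 0.03, -0.06 and -0.13. The adipocyte list ran from the 3.36 percentile (Adipoq) to the 83.1 (Lpl, lipoprotein lipase), and its 6 markers had pair medians of 0.09, -0.05 and -0.12, with sums of 304 to 465 and 362 to 472. Some fat genes stood apart in pair 1. Over the 3 pairs Adipoq differed by 1.37, 0.09 and -0.48, and Lpl by 1.04, -0.02 and -0.20. Of the 4 probe sets of Fabp4, a fatty acid binding protein, 2 differed by 4.11 and 4.54 in pair 1. The best expressed one, which stood for Fabp4 in the list, differed by 0.18, -0.13 and -0.10. Lep, Retn and Cidec differed by exactly 0 in pair 1. None of these passed the test. The fibrocyte list ran from the 56.5 percentile (Slc4a11) to the 99.7 (Gjb2). The 6 fibrocyte markers had pair medians of -0.33, -0.08 and -0.02, with sums of 11314 to 25443 and 7414 to 21365. Gjb2, with a mean of -0.72, is also on a list of 7 basal cell markers, of which 5 were negative and 2 positive. Of these 7 only 1 passed, Gjb6, with a mean of -1.27 (adjusted p = 0.0304, limma, paired). Among all probe sets 0.0822% were called lower. The means of Otos, Slc4a11, Pou3f4, Coch and Tbx18 were -0.52, -0.10, -0.05, 0.02 and 0.19. The part of these cells in the Car3 values was not tested.

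Car13, another cytosolic enzyme, gave probe sets of different sign. The best expressed (1421307_at) read 7.49, 8.36 and 8.33 in wild type and 7.27, 8.49 and 7.97 in the mutant. The mutant was the lower in pairs 1 and 3 and the higher in pair 2. This made a difference of -0.15 ± 0.25, with an interval of -0.43 to 0.13 (limma adjusted p = 0.758, paired). A second probe set on the same sequence (1421308_at) differed by 0.01 ± 0.27, and the third (1439620_at) by 0.17 ± 0.43. In that last one the wild types lay close together at 4.80, 4.71 and 4.74 and the mutants apart at 5.26, 5.07 and 4.41, at the 11.4 to 33.6 percentile.

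Read along chromosome 3, the neighbours Car13, Car1, Car3 and Car2 had differences of -0.15, -0.04, 0.04 and -0.34 by their best expressed probe sets. Car1, the red cell enzyme between Car13 and Car3, was dim and read 5.70, 6.93 and 6.22 in wild type and 5.70, 6.88 and 6.16 in the mutant. The 4 neighbours did not share a sign, and none passed the test.

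**Figure D2:**
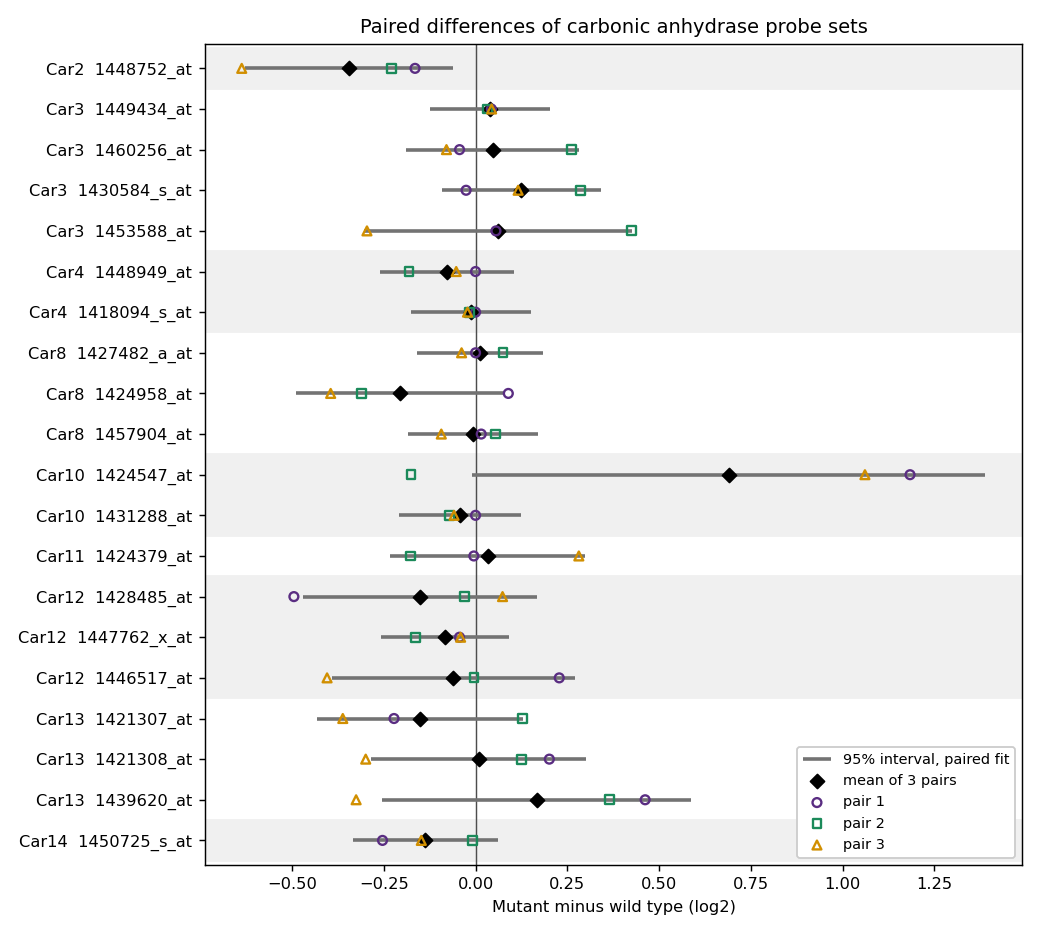
Mutant minus wild type (log2, horizontal axis) for each carbonic anhydrase probe set; open symbols are the 3 pairs, black diamonds their mean and grey bars the 95% interval of the paired fit. Car2 1448752_at has an interval wholly below 0 (-0.63 to -0.06), Car10 1424547_at the widest spread between pairs, and Car3 1449434_at 3 pairs that lie on top of each other near 0.04.

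Of the surface enzymes, Car12 and Car14 stood high on the arrays, and neither passed the test. Car14 has 1 probe set here (1450725_s_at), of a class that can match several transcripts. It read 9.91, 11.02 and 10.76 in wild type and 9.66, 11.01 and 10.61 in the mutant, at the 94.9 to 97.2 percentile. The mutant was the lower of each pair, by 0.01 to 0.25, and the genotypes overlapped. The difference was -0.14 ± 0.12, with an interval of -0.33 to 0.06 and adjusted p = 0.750 (limma, paired).

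The best expressed probe set of Car12 (1428485_at) read 8.48, 10.26 and 9.84 in wild type and 7.98, 10.23 and 9.91 in the mutant. Only in pair 1 did the arrays stand apart, with the mutant lower by 0.50 (pair difference -0.495), against -0.03 and 0.07 in the others. The mean was -0.15 ± 0.30, with an interval of -0.47 to 0.17 (adjusted p = 0.776, paired). Without pair 1 it was 0.02. A second Car12 probe set (1447762_x_at) was lower in the mutant of every pair, at -0.08 ± 0.07, and is of a class that can match other genes. The third (1446517_at) differed by -0.06 ± 0.32 and stood no higher than the 19.6 percentile.

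Car4, the surface enzyme of capillary endothelium and other epithelia, was dim. Its probe sets reached at most the 30.3 and 21.8 percentile of an array. The first (1448949_at) read 3.74, 5.93 and 4.93 in wild type and 3.74, 5.75 and 4.88 in the mutant, and the second (1418094_s_at) 4.58, 4.89 and 4.22 and 4.58, 4.87 and 4.199. Both had a difference of exactly 0 in pair 1. The means were -0.08 ± 0.09 and -0.01 ± 0.01, and neither passed (adjusted p = 0.791 and 0.963, limma, paired). Endothelial markers ran from the 30.3 percentile (Vwf) to the 96.5 (Emcn). All 10 of these markers had negative means, with 0 calls, with pair medians of -0.30, -0.20 and -0.12 and sums of 2480 to 6135 in wild type and 1931 to 5974 in the mutant. The part of endothelium in the Car4 values was not tested. Signal over background is not given, so whether Car4 was detected cannot be read from these values.

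Among the related proteins without enzyme activity, Car10 had the largest difference of any member, in 1 of its 2 probe sets and in 2 of the 3 pairs. Probe set 1424547_at read 6.27, 6.16 and 5.33 in wild type and 7.45, 5.98 and 6.39 in the mutant. Mutant replicates 1 and 3 were the highest arrays, and mutant replicate 2 was below wild-type replicates 1 and 2. Pair differences were 1.18, -0.18 and 1.06. The mean was 0.69 ± 0.75, or 1.61-fold, with an interval of -0.01 to 1.39 and adjusted p = 0.703 (limma, paired; unadjusted p = 0.0522). Without pair 2 the mean was 1.12, and without pair 1 it was 0.44. The other probe set of Car10 (1431288_at) read 5.03, 6.30 and 5.18 in wild type and 5.03, 6.23 and 5.12 in the mutant, with a difference of -0.04 ± 0.04. The 2 were designed on different sequences, and which transcripts each reads is not known here.

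Neuron markers and RNA quality were read beside Car10. Of 10 neuron markers 9 were positive, with pair medians of 1.54, 0.24 and 0.24. Their summed linear level ran from 679 to 1016 in wild type and 788 to 2361 in the mutant. The list ran from the 1.81 percentile (Snap25) to the 92.8 (Nefl). The neurofilament gene Nefl had the largest mean and differed by 4.63, 0.82 and 0.54. Elavl4 differed by 1.95, -0.13 and -0.09, and Syt1 by -0.02, -0.16 and 0.24. The negative marker was Prph, with a mean of -0.04. Of 6 Schwann cell and oligodendrocyte markers 5 were positive, with pair medians of 0.20, -0.06 and 0.18 and sums of 2942 to 5152 and 3829 to 4941. The Gapdh gap was wider in the mutant of pairs 1 and 3 by the values above. The part of neurons and of RNA quality in the Car10 values was not tested.

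Over the 18193 genes, those whose 3 pair differences came nearest to the ones of Car10 1424547_at were Rit2 (0.90, 0.25 and 0.66), Arsj (0.88, 0.22 and 0.64), Rbm46 (0.55, -0.16 and 0.86), Chodl (0.68, 0.08 and 0.68) and Aplp1 (0.97, 0.08 and 0.45). Likeness was the root mean square distance between the 3 differences, which was 0.37 to 0.40 for these 5. Of all these genes 0 lay within 0.2, and none of the 5 passed the test.

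Car11 (1424379_at), the other ligand of neurexins, read 7.84, 9.16 and 8.45 in wild type and 7.83, 8.98 and 8.73 in the mutant, at the 78.7 to 84.7 percentile. The genotypes overlapped, and the pair differences were -0.0047, -0.18 and 0.28. The mean was 0.03 ± 0.23, with an interval of -0.23 to 0.30 (adjusted p = 0.939, limma, paired).

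Car8, the partner of the inositol trisphosphate receptor, was low on all arrays. Its 3 probe sets stood no higher than the 25.2, 19.1 and 4.65 percentile. The first (1427482_a_at) read 4.79, 4.80 and 4.59 in wild type and 4.79, 4.88 and 4.56 in the mutant, a difference of 0.01 ± 0.06. The second (1424958_at) read 4.33, 5.25 and 4.197 against 4.42, 4.94 and 3.80, lower in the mutant of pairs 2 and 3 and higher in that of pair 1. Its difference was -0.21 ± 0.26 (adjusted p = 0.750, limma, paired). The third (1457904_at) differed by -0.01 ± 0.08.

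**Figure D3:**
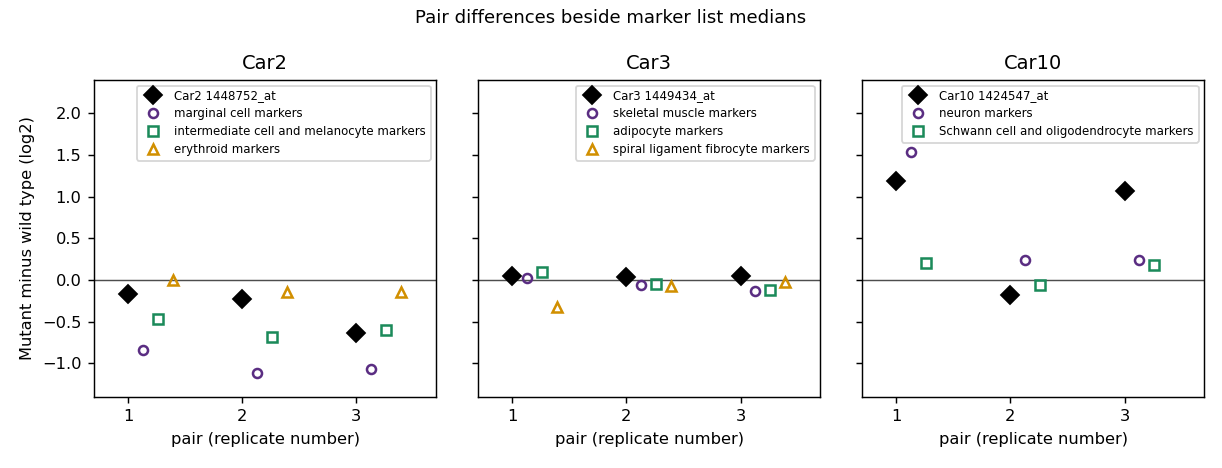
Mutant minus wild type (log2, vertical axis) in each pair for Car2 1448752_at, Car3 1449434_at and Car10 1424547_at (black diamonds), beside the median of marker lists in the same pair (open symbols, set to the right of the diamond). Neuron markers reach 1.54 in pair 1 and 0.24 in pairs 2 and 3, while Car10 reaches 1.18, -0.18 and 1.06; marginal cell markers lie below Car2 in every pair.

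The 7 other genes of the family, Car1, Car5a, Car5b, Car6, Car7, Car9 and Car15, did not pass either. These include the mitochondrial enzymes Car5a and Car5b, the salivary enzyme Car6 and the hypoxia-induced surface enzyme Car9. By their best expressed probe sets, 5 were negative and 2 positive, from -0.12 to 0.03, with 0 at an unadjusted p under 0.05. As examples, Car7 differed by 0.02 ± 0.15 and Car9 by -0.0023 ± 0.02. None of the 7 stood above the 61.9 percentile of any array by that probe set.

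Genes of bicarbonate and chloride transporter and channel families showed no call among 23 measured of 25 listed. Their median was -0.04, beside 0.0036 over all genes, with a range of -0.28 to 0.23, and 15 were negative and 8 positive. At an unadjusted p under 0.05 there were 4 of 23 by best expressed probe set, against 7.18% of all probe sets, dim ones included. These were Slc26a4, Slc26a7, Slc4a1 and Ano1. Slc4a1 is also on the erythroid list. Pendrin (Slc26a4), an apical exchanger which secretes bicarbonate into endolymph, read 8.97, 9.44 and 9.15 in wild type and 9.04, 9.83 and 9.36 in the mutant. Each mutant was above its partner, with a mean of 0.22 ± 0.16 (adjusted p = 0.691, limma, paired). Pendrin is also 1 of 7 markers of spindle, root and outer sulcus cells, of which 5 were positive, with pair medians of 0.06, 0.30 and 0.07 and sums of 8260 to 16437 and 9545 to 21456; their part was not tested. Slc26a7, an anion exchanger and channel gene, differed by 0.23 ± 0.04 (adjusted p = 0.546), while its other probe set differed by -0.21.

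Sodium-proton exchangers, monocarboxylate transporters and their accessory proteins, which carry acid across the membrane, gave 0 calls of 15 measured, with 8 negative and 7 positive. Their median was -0.0036 and their range -0.34 to 0.30, with 3 of 15 at an unadjusted p under 0.05 (Bsg, Slc16a1 and Slc9a2), against 7.18% of all probe sets. Examples are Bsg, the chaperone of lactate transporters (-0.28 ± 0.25, adjusted p = 0.695), and the scaffold gene Slc9a3r1 (-0.02 ± 0.14, 0.950; limma, paired). The list of partners gave 0 calls of 12, a median of 0.04 and 0 at an unadjusted p under 0.05. It holds inositol trisphosphate receptors, Ahcyl proteins, neurexins, the bicarbonate-sensitive cyclase Adcy10, and water and ammonia channels. Examples are the Itpr regulator Ahcyl1 (-0.02 ± 0.20) and the water channel gene Aqp1 (0.13 ± 0.30). No gene of these 4 lists passed, where 0.0933% of all probe sets did.

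**Figure D4:**
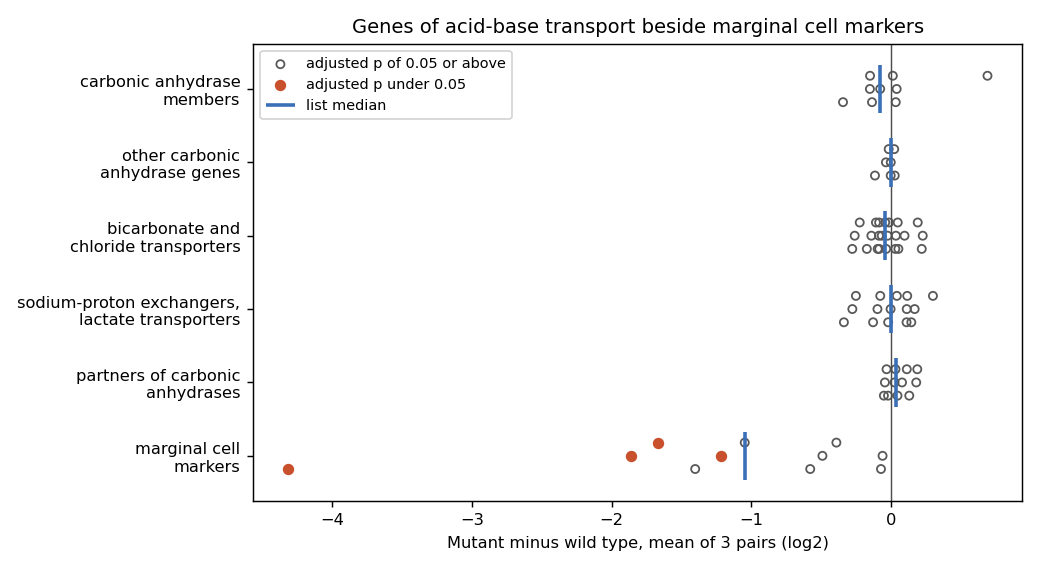
Mean difference of each gene (log2, mutant minus wild type, best expressed probe set) in the carbonic anhydrase list, 4 lists of related genes and, for scale, the marginal cell markers; blue bars are list medians and filled points passed the paired fit. No point of the first 5 lists is filled and their medians lie between -0.08 and 0.04, whereas 4 marginal cell markers are filled and their median is -1.05.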

How the data were processed

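Total RNA of 6 stria vascularis pools was measured on 1 Affymetrix array each. The authors deposited a log2 value per probe set, computed with RMA per the submitters' processing notes. Which version was used, and which arrays were normalized together, is not stated. Values span 2.33 to 14.6, the range from which the log2 scale was inferred. They were used as deposited, 64 control probe sets left out, with no filter. With 3 arrays per genotype, their number limits the precision. Paired p-values start from the spread of the 3 pair differences, and p-values without the pairs from the spread between pools of a genotype. In both, eBayes draws each probe set's variance toward a value shared by all probe sets. Intervals and p-values therefore do not follow a probe set's own SD alone. Car3 1449434_at, for example, had an SD of 0.0061 and an interval of -0.12 to 0.20.

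Tests used limma 3.58.1 under R 4.3.3 (two-sided, lmFit and eBayes), with genotype and replicate number as terms and Benjamini-Hochberg adjustment over 45037 probe sets, at 0.05. The pairing comes from the replicate numbers in the labels and a check: once each genotype's mean was removed, same-numbered arrays correlated with r = 0.879, 0.818 and 0.7455, each over the 0.1 required. They held 15406, 1185 and 1398 equal values, and whether pairs are biological or come from separate normalization is not stated, which limits what the paired p-values mean. The fit was tested on simulated data, which held no exact zeros and whose added differences were larger than any member's mean. That test does not speak to differences of the members' size. Symbols come from the platform annotation: 34945 probe sets had 1 symbol, 932 several and 9160 none. In lists, the probe set with the highest mean stood for a gene. The shares set beside list counts are over all probe sets, and those over best expressed probe sets alone were not computed. All member probe sets are named; from other lists, genes that passed or, where none did, the 2 of highest mean signal, which picks examples and does not rank transcripts; markers and other genes were named after their values were seen. Members and lists were chosen with earlier results of these data known. Probe sets differ in affinity, so their signals give no order of transcript levels; percentiles place a probe set among all on its array. Promoter sequences are RefSeq's, build GRCm38.p6. Alternatives were the fit without the block, quantile normalization, median centring, a filter on level, eBayes with trend and robust options, leaving out probe sets of shared classes, and leaving out each pair or array.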

Additional observations from a re-analysis of the deposited data

How the results depend on the processing

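No carbonic anhydrase probe set was called under any alternative run: without the replicate block, after quantile normalization or median centring, with 13 of 20 left by a filter on level, with trend and robust eBayes, with 16 left without shared classes, at an adjusted p under 0.10, or without any pair or array. The lists of bicarbonate and of acid transporters also gave 0 calls in each alternative run on them. Over all probe sets the paired fit called 42; 3 passed without the pairing block, 92 at an adjusted p under 0.10, 0 to 7 when a pair was left out and 2 to 11 when a single array was left out of the unpaired fit. Median centring turned the sign of 2 dim probe sets, Car4 1418094_s_at (0.00048) and Car8 1457904_at (0.0053). Leaving out a pair turned the sign of 8 probe sets, and leaving out a single array that of 17 of 20, where the median of all probe sets itself moved between -0.23 and 0.23. Over these settings the differences of the probe sets that turned ran as follows, lowest to highest: Car3 -0.23 to 0.30 (1449434_at), -0.12 to 0.24 (1453588_at), -0.38 to 0.52 (1460256_at). Car4 -0.18 to 0.16 (1418094_s_at), -0.64 to 0.45 (1448949_at). Car8 -0.48 to 0.12 (1424958_at), -0.056 to 0.10 (1427482_a_at), -0.28 to 0.25 (1457904_at). Car10 -0.43 to 0.35 (1431288_at). Car11 -0.29 to 0.38 (1424379_at). Car12 -0.67 to 0.54 (1428485_at), -0.36 to 0.17 (1446517_at), -0.40 to 0.25 (1447762_x_at). Car13 -0.44 to 0.17 (1421307_at), -0.25 to 0.21 (1421308_at), -0.0065 to 0.42 (1439620_at). Car14 -0.46 to 0.25 (1450725_s_at). The sign held in all of them for Car2 1448752_at (-0.77 to -0.01), Car10 1424547_at (0.27 to 1.12) and Car3 1430584_s_at (0.02 to 0.24). Signal over background is not given, which limits what the dim Car4 and Car8 values can show.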
